A study of Mus musculus with 5 samples.

Results

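Bidirectional promoters are stretches of DNA from which 2 genes start on opposite strands and point away from each other. Among 56615 RNA polymerase II (Pol II) peaks of mouse regulatory T (Treg) cells, 648 lay at such promoters. A peak was taken when it was on chromosomes 1 to 19, was shorter than 5000 bp, and had its midpoint within 1 kb of the starts of both genes of a protein-coding pair whose starts were at most 1 kb apart in the GENCODE annotation of build mm10. The 648 peaks held 635 of the 734 pairs that the annotation gives, with 1251 genes. The rule itself uses no count, but the peaks were called from the libraries of this series, and earlier results of these data were known. For comparison, 7428 peaks were taken at promoters of a single protein-coding gene with no other protein-coding start within 1 kb, called one-gene promoters here. The limits on chromosome, length and midpoint were the same. In addition, the midpoint could not lie within 1 kb of another protein-coding start.

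Pol II was measured by CUT&Tag, in which an antibody to Pol II brings in a transposase that inserts sequencing adapters nearby. The Treg cells, sorted from the spleen as CD3+CD4+Foxp3-YFP+ cells, came from 8-week-old C57BL/6 mice of both sexes pooled, which had received the Treg-expanding complex IL-2c (IL-2, 1 μg, bound to 5 μg of an antibody against it) on 3 days and were killed 48 h after. There were 2 libraries from Foxp3CreSetd2flox/+ mice (Ctrl) and 2 from Foxp3CreSetd2flox/flox mice (KO), each from 80000 nuclei, and an IgG library that was not analysed here. Setd2 is the enzyme that trimethylates histone H3 on lysine 36, a mark laid down behind elongating Pol II. Both genotypes carried Cre driven by Foxp3, which directs the deletion to Foxp3-expressing cells, and the Ctrl mice had 1 floxed allele themselves. Cells of 2 mice were pooled, and the study counts each lot of 80000 nuclei as a biological replicate. It does not state whether each library had mice of its own, so the spread between libraries may be technical.

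At a divergent pair, 1 nucleosome-depleted region serves both genes, and Pol II initiates in both directions from separate start sites. Such promoters are mostly rich in CpG dinucleotides, rarely hold a TATA box, and often serve housekeeping genes of DNA repair, mitochondria and RNA processing. Reads from tagged DNA do not tell the strand that was transcribed, so a peak over both starts belongs to both partners. Only Pol II further inside 1 gene tells the partners apart.

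The DNA between the 2 starts was short. The starts were 1 to 987 bp apart, with a median of 128 bp and quartiles of 66.3 and 240 bp. The stretches between the starts of 12 pairs are given below from the plus strand of GRCm38/mm10, from the base after the start of the minus-strand gene (named first) to the base before the start of the plus-strand gene. Capitals mark matches on either strand, overlaps allowed, to any of 8 promoter motifs. The general promoter elements were the TATA box, searched as TATAAA, the CCAAT box, searched by those 5 letters, and the GC box, to which factors of the Sp family bind, searched as GGGCGG. The motifs of single factors were CCGGAAGT for the ETS family, GCGCATGC for NRF1, AAGATGGC for YY1, TCTCGCGA for ZBTB33 and TGACGTCA for the cyclic AMP response element (CRE). The first 7 pairs are shown because their shared peak had fewer counts in KO at an unadjusted p under 0.05.
Dhx38/Txnl4b, chr8:109565862-109565891: cgtcacttcctgtcgctggcggccagtgca
Chpf/Tmem198, chr1:75479308-75479531: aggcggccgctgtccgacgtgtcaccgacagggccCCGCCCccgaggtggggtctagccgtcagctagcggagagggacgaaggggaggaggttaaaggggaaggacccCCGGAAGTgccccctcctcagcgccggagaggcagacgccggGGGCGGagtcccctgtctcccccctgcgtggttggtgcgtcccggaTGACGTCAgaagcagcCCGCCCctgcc
Helq/Mrps18c, chr5:100798599-100798626: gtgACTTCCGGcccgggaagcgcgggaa
Mrto4/Emc1, chr4:139352577-139352586: ggtgcatgcc
Fpgt/Lrriq3, chr3:155093404-155093433: cgccCCGCCCCGCCCCGCCCcgcctcctcc
Zfp661/Mrps5, chr2:127587095-127587221: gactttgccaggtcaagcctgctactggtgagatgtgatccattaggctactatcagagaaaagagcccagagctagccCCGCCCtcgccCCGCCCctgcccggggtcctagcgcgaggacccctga
Cep44/Fbxo8, chr8:56551048-56551089: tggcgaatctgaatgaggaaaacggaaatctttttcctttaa
Next come the pair with the highest Pol II count per kb, a pair of a respiratory chain gene with an oocyte growth factor, an interferon-induced pair, a pair with a T cell costimulatory receptor, and a histone pair whose stretch has 42.4% GC.
Rita1/Ddx54, chr5:120612590-120612738: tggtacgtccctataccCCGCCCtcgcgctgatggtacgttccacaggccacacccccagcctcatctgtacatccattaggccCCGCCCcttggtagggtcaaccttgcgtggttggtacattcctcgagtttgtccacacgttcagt
Uqcrq/Gdf9, chr11:53430832-53431022: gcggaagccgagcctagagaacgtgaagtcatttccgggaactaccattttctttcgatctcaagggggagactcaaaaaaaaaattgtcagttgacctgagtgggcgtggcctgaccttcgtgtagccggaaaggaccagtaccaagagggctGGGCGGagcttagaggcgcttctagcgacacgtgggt
Ifit1bl2/Ifit1, chr19:34640744-34640870: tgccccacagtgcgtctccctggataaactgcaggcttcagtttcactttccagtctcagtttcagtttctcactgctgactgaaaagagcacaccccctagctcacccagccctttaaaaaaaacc
Park7/Tnfrsf9, chr4:150914438-150914561: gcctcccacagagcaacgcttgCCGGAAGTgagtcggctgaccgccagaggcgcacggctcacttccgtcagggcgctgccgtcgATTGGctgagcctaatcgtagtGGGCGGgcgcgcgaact
Hist1h2ag/Hist1h2bj, chr13:22042945-22043213: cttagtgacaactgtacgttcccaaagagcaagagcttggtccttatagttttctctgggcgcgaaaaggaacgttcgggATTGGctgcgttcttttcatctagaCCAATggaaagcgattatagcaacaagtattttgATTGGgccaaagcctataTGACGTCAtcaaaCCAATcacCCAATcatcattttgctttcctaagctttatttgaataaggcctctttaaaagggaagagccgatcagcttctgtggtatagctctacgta
The stretches of Dhx38/Txnl4b, Mrto4/Emc1, Cep44/Fbxo8 and Ifit1bl2/Ifit1 had no match to any of the 8 motifs. The stretch of Chpf/Tmem198 held 3 GC boxes, an ETS match and a CRE match, and that of Hist1h2ag/Hist1h2bj held 5 CCAAT boxes and a CRE match.

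Windows of 300 bases centred between the starts of the 635 pairs had a median GC content of 63% and a median ratio of observed to expected CpG of 0.861. In the windows centred on the 6838 one-gene starts with a peak, the medians were 64.3% and 0.821. A TATA box match was in 3.62% of the bidirectional windows and 4.75% of the one-gene windows. GC box matches were in 70.6% and 67.5%, CCAAT box matches in 44.6% and 36.7%, and ETS matches in 14.5% and 8.70%. YY1 matches were in 8.82% and 5.66%, NRF1 matches in 7.09% and 5.69%, ZBTB33 matches in 4.57% and 2.35%, and CRE matches in 4.57% and 3.64%. The 99 pairs without a peak by these limits had a median GC content of 57.7%. They held a TATA box match in 10.1% and an ETS match in 5.05% of their windows. These shares describe letters in a window and say nothing of binding.

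The libraries held 11331274 and 5624680 counts in all peaks for Ctrl 1 and Ctrl 2, and 13351007 and 4489646 for KO 1 and KO 2. Normalized counts are counts divided by the size factor of DESeq2 for the library. Of the 6 genes looked up as markers of the sorted cells, Il2ra, Ctla4, Ikzf2, Cd3e and Cd4 held a peak within 1 kb of their starts. Their summed normalized counts were 1177 to 1466 in Ctrl and 1204 to 1440 in KO. Foxp3 had no peak within 1 kb of its annotated start. Cd3e and Cd4 are not specific to Treg cells, and no marker of other CD4 T cells was looked up. Of the 12 markers of B cells, CD8 T cells, NK cells, myeloid and erythroid cells, Cd79a alone had a peak, at 17.9 and 34.5 normalized counts in Ctrl and 23.2 and 46.0 in KO. At Setd2 itself the promoter peak held 229 and 192 normalized counts in Ctrl and 211 and 237 in KO. Pol II can still occupy a gene that has lost exons, so this does not check the genotype labels.

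Bidirectional promoters carried a Pol II peak by these limits more often than one-gene promoters. Of the 734 annotated pairs, 635 (86.5%) had a peak, against 6838 of 18126 one-gene promoters (37.7%). These shares come from 1 merged set of peaks and have no replicates, so the difference was not tested. A promoter counted as without a peak if its only peaks were 5000 bp or longer, or had midpoints outside the limits. The share was 86.9% for starts under 100 bp apart, 88.6% for 100 to 199 bp and 92.1% for 200 to 399 bp, and it was 71.6% for starts 400 bp or more apart. A midpoint within 1 kb of both starts has less room when the starts lie further apart, so the rule itself can lower the share of the widest class. A single peak served 601 pairs, and 34 pairs had 2 peaks. There were 21 peaks that served 2 pairs at once, among them the peak of Mrto4 with both Emc1 and Ubr4, whose starts lie beside each other on the plus strand.

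**Figure D1:**
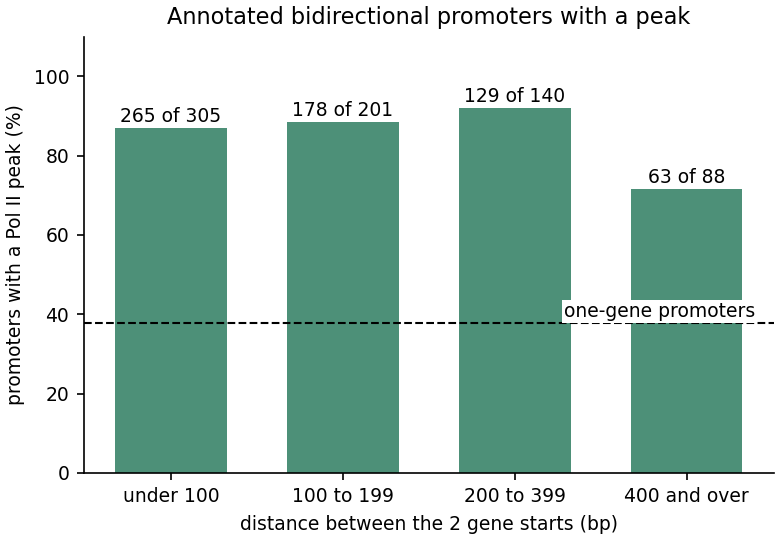
Bars give the percentage of annotated bidirectional promoters with a Pol II peak (y axis) by the distance between the starts in bp (x axis), with the number of pairs on each bar, and the dashed line gives the share of one-gene promoters with a peak. All 4 distance classes lie above the 37.7% of one-gene promoters. The class of 400 bp and over is the lowest at 71.6%, and the rule leaves the midpoint the least room there.

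Most peaks spread over both starts. The shared peaks spanned 229 to 4352 bp, and their median length was 1169.5 bp, against 874 bp for one-gene promoters and 570 bp for all peaks. Of the 648, 547 (84.4%) covered both starts. The midpoint lay between the starts in 166 peaks, inside the minus-strand gene in 239 and inside the plus-strand gene in 243. The median distance of the midpoint from the centre of the pair was 173 bp, and 202 midpoints (31.2%) lay within 100 bp of it.

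The density of Pol II was higher at bidirectional than at one-gene promoters in all 4 libraries. The median normalized count per kb of peak over the 648 peaks was 232 and 213 in the Ctrl libraries (1 and 2) and 219 and 206 in the KO libraries (1 and 2). Over the one-gene peaks the medians were 179, 161, 174 and 162 in the same order. The ratio of the 2 medians was 1.29 ± 0.030 (SD, n = 4 libraries), and it was above 1 in 4 of 4 libraries, with p = 0.125 in an exact two-sided sign-flip permutation test, the smallest p that 4 libraries allow. By genotype the ratio averaged 1.31 ± 0.025 (Ctrl) and 1.27 ± 0.0099 (KO; SD, n = 2 each). Both KO values were below both Ctrl values, with p = 0.333 in an exact two-sided permutation test, the smallest p that 2 against 2 libraries allow. Within the bidirectional class, the median count per kb in Ctrl was 196 for starts under 100 bp apart, 233 for 100 to 199 bp, 247 for 200 to 399 bp and 275 for 400 bp and over.

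**Figure D2:**
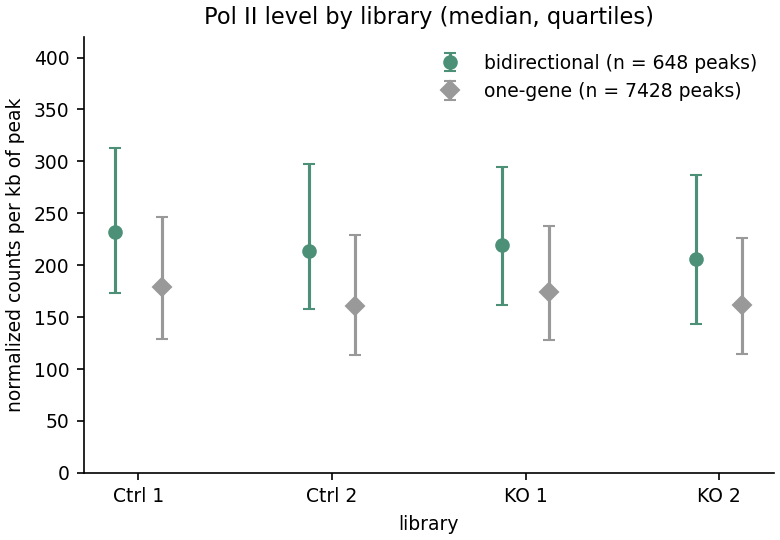
Points give the median normalized count per kb of peak (y axis) in each library (x axis) for bidirectional and one-gene promoters, with bars from the lower to the upper quartile over peaks. The bidirectional medians of 206 to 232 lie above the one-gene medians of 161 to 179 in each library, while the quartile ranges overlap.

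Single pairs differed far more than the classes. The mean normalized count per kb in Ctrl ran from 56.4 to 942, with a median of 224. The highest was at Rita1/Ddx54, a Notch pathway regulator and a DEAD-box RNA helicase, with 1678 and 1866 normalized counts in Ctrl and 1501 and 2008 in KO over 1881 bp. Pdcd10/Serpini1 (690 per kb), Uqcrq/Gdf9 (685), Ddias/Prcp (667), Sqstm1/Mgat4b (646) and 2700097O09Rik/Srp54a (629) followed. Sqstm1 encodes the autophagy receptor p62, Uqcrq a subunit of respiratory complex III, and Srp54a a subunit of the signal recognition particle. In none of these 6 pairs but Uqcrq/Gdf9 and Ddias/Prcp did the genotypes separate. The lowest were peaks of Ccnt1/4930415O20Rik (56.4 per kb), Nudt22/Trpt1 (67.6) and Prkar1b/Dnaaf5 (69.9).

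A pair of peaks held genes from the list of immune and Treg genes. Park7/Tnfrsf9, a redox-sensing protein with the costimulatory receptor 4-1BB, shared a peak of 3509 bp with 1450 and 1372 normalized counts in Ctrl and 1337 and 1236 in KO. Tctn3/Entpd1, a ciliary protein with the ectonucleotidase CD39, had 116 and 168 in Ctrl and 135 and 155 in KO. The KO values lay below both Ctrl values at Park7/Tnfrsf9 (log2 fold change −0.13 ± 0.18 SE) and among them at Tctn3/Entpd1.

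The comparison of KO with Ctrl asked whether loss of Setd2 shifted Pol II at these promoters. No shared peak was called at an adjusted p under 0.05 by DESeq2 (0 of 648), nor was any of the 56615 peaks (0%), and the lowest adjusted p among the shared peaks was 0.248. The study, also with DESeq2, reports Pol II peaks that changed significantly and names Txnl4b among the affected genes. Its methods give no threshold for these peaks. At an unadjusted p under 0.05, 10 shared peaks (1.54%) were lower in KO, against 0.664% of all peaks and 0.727% of one-gene peaks. None was higher, against 0.862% of all peaks and 0.660% of one-gene peaks. By edgeR with an adjusted p under 0.05, 4 shared peaks of 648 were called lower and none higher, where 0.0477% of all peaks were called. In bulk cells, fewer cells with Pol II at a promoter and less Pol II per cell cannot be told apart.

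Small shifts also leaned downward. In 153 shared peaks (23.6%) the higher KO value was still under the lower Ctrl value, against 16.1% of all peaks and 17.4% of one-gene peaks. The reverse held in 55 (8.49%), against 16.2% and 12.9%. The median log2 fold change was −0.07, with 439 of 648 peaks (67.7%) below 0, while it was −0.03 over one-gene peaks and −0.01 over all peaks. This median was smaller than the spread between libraries. Against the mean of the Ctrl libraries, the median log2 ratio of the shared peaks was 0.06 and −0.06 for Ctrl 1 and Ctrl 2, and −0.02 and −0.13 for KO 1 and KO 2, so KO 1 lay between the Ctrl libraries. Without Ctrl 1 the median was 0.01, without Ctrl 2 it was −0.13, without KO 1 it was −0.14 and without KO 2 it was −0.02. The share of all counts that fell in shared peaks was 2.69% ± 0.071 for Ctrl and 2.60% ± 0.060 for KO (SD, n = 2 each), a difference of −0.0924 percentage points with p = 0.667 in an exact two-sided permutation test.

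**Figure D3:**
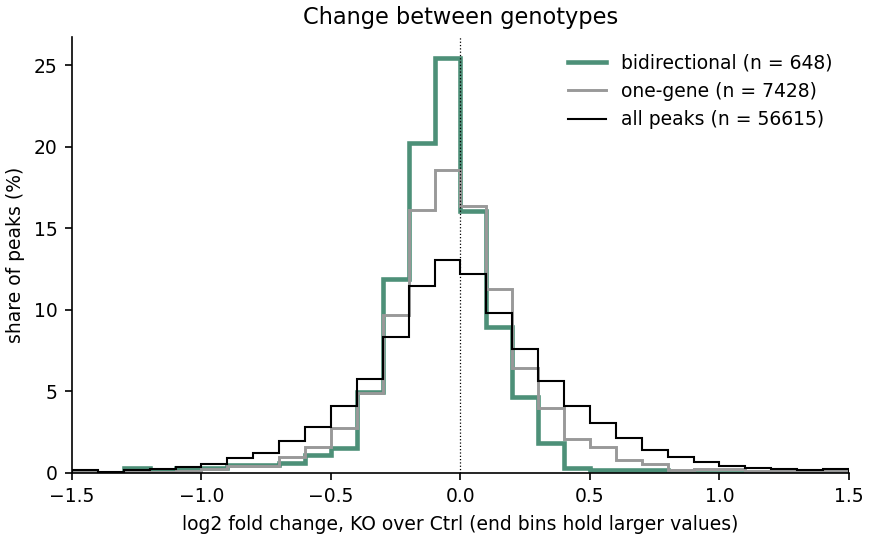
Lines give the share of peaks in % (y axis) by log2 fold change of KO over Ctrl in bins of 0.1 (x axis) for the bidirectional promoters, the one-gene promoters and all peaks. The bidirectional distribution is the narrowest and has its median at −0.07, against −0.03 and −0.01.

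The peak with the lowest p belonged to Dhx38/Txnl4b, at chr8:109565189-109566561, which covers the starts of a splicing helicase and a thioredoxin-like protein 31 bp apart. It held 324 and 314 normalized counts in Ctrl and 132 and 152 in KO. Both KO values were under the Ctrl values by more than the spread within either genotype, and the log2 fold change was −1.18 ± 0.26 (SE; adjusted p = 0.248 by DESeq2 and 0.000612 by edgeR). Chpf/Tmem198 at chr1:75478922-75479898, a factor of chondroitin synthesis with a transmembrane protein, held 367 and 218 in Ctrl and 141 and 111 in KO. Its Ctrl libraries differed from each other by more than Ctrl 2 differed from KO 1, and its log2 fold change was −1.21 ± 0.31 (adjusted p = 0.717 by DESeq2 and 0.000612 by edgeR).

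Hspa1a/Hspa1l at chr17:34971885-34972720, which encode Hsp70 chaperones, held 325 and 220 in Ctrl and 142 and 128 in KO (log2 fold change −1.02 ± 0.29, adjusted p = 1.00 by DESeq2 and 0.0210 by edgeR). The nearby Hspa1b is almost a copy of Hspa1a and reads that map to both were dropped, so this value is uncertain. Dhx38/Txnl4b, Chpf/Tmem198 and Hspa1a/Hspa1l were among the 4 shared peaks called by edgeR, and in all 4 the genotypes did not overlap.

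The other 6 of the 10 were lower by unadjusted p alone, with adjusted p above 0.05 by both tools. Helq/Mrps18c, a DNA repair helicase with a mitochondrial ribosomal protein, held 111 and 109 normalized counts in Ctrl and 48.1 and 42.6 in KO (log2 fold change −1.27 ± 0.39). Mrto4 with Emc1 and Ubr4, a ribosome assembly factor with a subunit of the ER membrane complex and a ubiquitin ligase, held 269 and 229 in Ctrl and 156 and 116 in KO (−0.85 ± 0.29). In both peaks the lowest Ctrl value stood well above the highest KO value. Fpgt/Lrriq3, the first an enzyme of fucose metabolism, held 151 and 145 in Ctrl and 69.5 and 95.4 in KO (−0.87 ± 0.34). Atp7b/Alg11, a copper pump with a mannosyltransferase of protein glycosylation, held 147 and 131 in Ctrl and 89.7 and 54.5 in KO (−0.91 ± 0.36). In both of these peaks the KO libraries differed from each other by more than the Ctrl libraries did. Zfp661/Mrps5, a zinc finger protein with a mitochondrial ribosomal protein, held 159 and 207 in Ctrl and 94.5 and 119 in KO (−0.78 ± 0.31). Cep44/Fbxo8, a centrosomal protein with an F-box protein, held 323 and 313 in Ctrl and 230 and 199 in KO (−0.56 ± 0.25). When each library was left out in turn, the log2 fold changes of the 10 ran from −1.53 to −0.46. Their sign is no check, because in all 10 both KO values were under both Ctrl values.

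**Figure D4:**
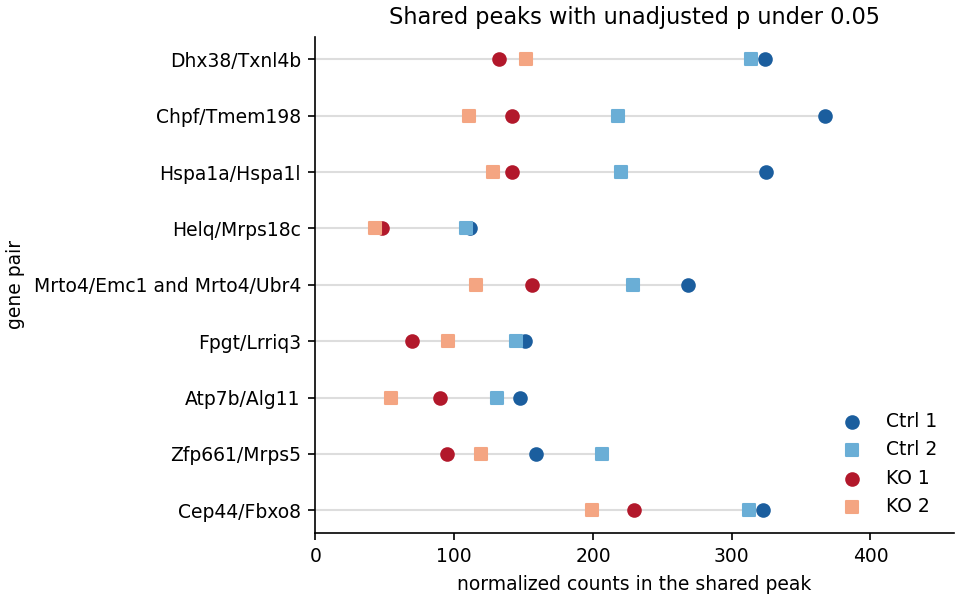
Points give the normalized counts (x axis) in the shared peak of 9 of the 10 pairs with an unadjusted p under 0.05 (y axis) in each of the 4 libraries. In each pair both KO points lie left of both Ctrl points, as at Dhx38/Txnl4b with 132 and 152 against 324 and 314.

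The 10 peaks lay at 11 pairs, and the 300-base window around the middle of the starts held a GC box in 10 of these pairs, where 70.6% of the windows of the bidirectional class held one. A CCAAT box was in 2 of the 11, an ETS match in 4 and a CRE match in 2, against 44.6%, 14.5% and 4.57% of the class. None held a TATA box, NRF1, YY1 or ZBTB33 match, against 3.62%, 7.09%, 8.82% and 4.57%. The starts were 11 to 547 bp apart, and 6 of the peaks had starts under 100 bp apart, a class that held 274 of the 648 peaks. The 300-base windows of Dhx38/Txnl4b, Cep44/Fbxo8 and Hspa1a/Hspa1l had 51.0%, 45.3% and 51.3% GC, below the lower quartile of 57.3% of the bidirectional class, while Atp7b/Alg11 and Chpf/Tmem198 had 73.0% and 71.3%, above its upper quartile of 68%.

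No shared peak had a higher count in KO at an unadjusted p under 0.05. The nearest was Ifit1bl2/Ifit1, interferon-induced genes whose products bind RNA, with 105 and 88.2 normalized counts in Ctrl and 188 and 112 in KO (log2 fold change 0.65 ± 0.35). Both KO libraries stood above both Ctrl libraries, but the value rested on KO 1, and without it the log2 fold change was 0.21. Sept10/Sowahc, Exoc2/Gm5447, Iqch/Aagab and Exosc8/Alg5 also had KO values above both Ctrl values, at 0.37 ± 0.27, 0.49 ± 0.37, 0.28 ± 0.22 and 0.26 ± 0.21.

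Gene groups gave the roles of 220 of the 648 peaks. The mitochondrial group, ribosomal proteins and respiratory chain subunits, was the largest, with 43 peaks at 42 of its 44 annotated pairs. Helq/Mrps18c and Zfp661/Mrps5 were lower at an unadjusted p under 0.05, as were 0.664% of all peaks and 1.54% of the shared peaks, and none of the 43 was higher. Their median log2 fold change was −0.10, against −0.01 over all peaks, and 14 had KO values that were all under the Ctrl values, as did 16.1% of all peaks and 23.6% of the shared peaks. Among the 37 peaks of RNA splicing and processing genes, Dhx38/Txnl4b was the 1 that was lower, with a median of −0.09 over the group. In the 18 peaks of proteasome and chaperone genes it was Hspa1a/Hspa1l, with a median of −0.12. Tsacc/Cct3, a chaperonin subunit, had 686 and 579 normalized counts in Ctrl and 490 and 494 in KO, which do not overlap, but its p did not pass (log2 fold change −0.37 ± 0.21). The 17 peaks of zinc finger genes named Zfp held 1 lower peak, Zfp661/Mrps5, with a median of −0.15.

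DNA replication and repair genes had 30 peaks, none of which passed an unadjusted p of 0.05. In 13 of the 30 the KO values were all under the Ctrl values and in 0 all above, and the median was −0.12. Over all peaks these shares were 16.1% and 16.2%, and over the shared peaks 23.6% and 8.49%. The transcription machinery (22 peaks, median −0.13), cell cycle and mitosis genes (25, −0.04), cytosolic ribosome and translation (20, −0.07) and vesicle traffic and autophagy (19, −0.07) also had no peak with an unadjusted p under 0.05. Hps5/Gtf2h1, the second a subunit of the general factor TFIIH, was at −0.28 ± 0.22, and Cdc27/Myl4, the first a subunit of the anaphase-promoting complex, at −0.23 ± 0.23.

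Divergent pairs long used as textbook examples included Atm/Npat, Brca1/Nbr1, Mcm4/Prkdc, Mrps12/Sars2 and Polh/Xpo5, whose counts per kb in Ctrl ran from 175 at Polh/Xpo5 to 508 at Mcm4/Prkdc, against a median of 224 over all shared peaks. Atm, a kinase of the DNA damage response, and Npat, a coactivator of histone genes, shared 446 and 408 normalized counts in Ctrl and 373 and 361 in KO (log2 fold change −0.22 ± 0.22). Brca1/Nbr1 had 689 and 660 in Ctrl and 602 and 623 in KO (−0.14 ± 0.20). Mcm4/Prkdc, a subunit of the replicative helicase with the catalytic subunit of DNA-PK, had 773 and 845 in Ctrl and 797 and 916 in KO (0.08 ± 0.20). The genotypes did not overlap in Atm/Npat and Brca1/Nbr1 and overlapped in the other 3, and none of these differences passed the test.

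Replication-dependent histone genes had a peak by these limits at 7 of their 14 annotated pairs, the lowest share of the groups. Peaks of 5000 bp or longer were left out, and reads that map to more than 1 place were dropped. The other pairs may therefore still carry Pol II, which was not tested. The 7 peaks had 180 to 290 normalized counts per kb in Ctrl, and in none were the genotypes apart. Hist1h2ak/Hist1h2bn held 553 and 437 in Ctrl and 462 and 395 in KO. Hist1h2ag/Hist1h2bj held 446 and 317 in Ctrl and 374 and 313 in KO. In both pairs the spread between libraries of 1 genotype was as large as the difference between genotypes.

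Pol II inside the gene bodies was assigned to 1 partner at a time. A body peak was one with its midpoint inside exactly 1 protein-coding gene and over 1 kb from all protein-coding starts. Of the 635 pairs, 191 had body peaks in both partners, 272 in 1 partner and 172 in neither. Where both had them, the partner with more normalized counts per kb of gene in Ctrl exceeded the other by a median of 3.05-fold, by over 2-fold in 137 pairs (71.7%) and by over 10-fold in 27. This fold is of the larger over the smaller value, so it cannot be under 1, and other gene pairs were not compared. Counts were divided by the full gene length, including parts where no body peak could lie by this definition. At Rita1/Ddx54 the body of Ddx54 held 140 normalized counts per kb of gene in Ctrl and that of Rita1 held 5.98. At Sqstm1/Mgat4b the values were 390 and 64.9, and at Uqcrq/Gdf9 they were 41.8 and 9.34. The shared peak did not reach further into the stronger partner. It extended further into it in 95 of the 191 pairs (49.7%), by a median of 597 bp into the stronger and 635 bp into the weaker gene.

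Between genotypes, 645 of the 1251 partner genes had body peaks that could be summed and tested. By DESeq2 over the bodies of 7459 genes, 2 partners were called at an adjusted p under 0.05, where 0.067% of all bodies were called. At an unadjusted p under 0.05, 11 partners were lower and 16 higher, while 1.38% and 1.96% of all bodies were. Their median log2 fold change was 0.03, against 0.01 over all bodies. The called genes were Dhx38 and Ubr4. The 7 body peaks of Dhx38 held 852 and 1043 normalized counts in Ctrl and 408 and 576 in KO, and fell by 0.96 ± 0.21 on the log2 scale (adjusted p = 0.0123 by DESeq2). The 13 body peaks of Ubr4 held 995 and 1192 in Ctrl and 611 and 680 in KO. They fell by 0.76 ± 0.17 (adjusted p = 0.0216). Both are partners of pairs whose shared peak was lower at an unadjusted p under 0.05, while Txnl4b had no body peak, and Emc1 lies almost wholly inside the interval of Ubr4 and so had none by this definition.

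The body of Chpf, with 116 and 161 normalized counts in Ctrl and 42.8 and 91.97 in KO, was lower at an unadjusted p under 0.05 but not called. In the other direction, the body of Exosc8, a subunit of the RNA exosome, held 104 and 96.4 in Ctrl and 204 and 237 in KO (log2 fold change 1.12 ± 0.28, adjusted p = 0.0941 by DESeq2). Nop9, a ribosome assembly factor, held at most 27.6 in Ctrl and 59.4 and 88.6 in KO (1.54 ± 0.49). In both genes the genotypes did not overlap, although the shared peaks with Alg5 and Dhrs1 differed by 0.26 ± 0.21 and −0.27 ± 0.35.

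The study also made lists of genes that differed in mRNA between KO and Ctrl Treg cells of the spleen and the large intestine, from other libraries of the same genotypes and by its own threshold. They are used as gene names only. The study itself reports that Pol II changes at promoters and gene bodies correlated with mRNA changes of its most significant intestinal genes. The methods of the study name no IL-2c treatment for the cells of the mRNA libraries, while the Pol II cells came from treated mice. The intestinal lists are also from another tissue. Of the shared peaks, 50 had a partner on the list lower in the intestine and 111 on that lower in the spleen. The median log2 fold change of Pol II was −0.23 and −0.16 in these, with 44 (88.0%) and 94 (84.7%) below 0 and 8 lower at an unadjusted p under 0.05 in each. Of all 648 shared peaks 67.7% were below 0 and 1.54% lower at that p, and of all peaks 51.1% and 0.664%. The KO values were all under the Ctrl values in 34 (68.0%) and 42 (37.8%) of the listed peaks, against 23.6% of the shared peaks and 16.1% of all peaks. One-gene promoters on the same lists had medians of −0.14 and −0.07, with 71.7% and 61.2% below 0. Of these, 18 of 350 and 18 of 652 were lower at that p, and KO values were all under the Ctrl values in 112 (32%) and 161 (24.7%). The 66 and 98 shared peaks with a partner on the lists of higher mRNA had medians of −0.00 and −0.02 and none at that p in either direction. In the 390 peaks with a partner on no list, the median was −0.06, 65.9% were below 0 and none was lower at that p.

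All 10 shared peaks with lower counts at an unadjusted p under 0.05 had a partner on a list of lower mRNA. Of all 648 shared peaks, 50 had a partner on the intestinal list and 111 on the spleen list, and 390 were on none of the 4 lists. Of the 54 one-gene peaks lower at that p, 18 were on each list of lower mRNA. A shared peak has more genes that can be listed than a one-gene peak. Both partners of Dhx38/Txnl4b and of Cep44/Fbxo8, and all 3 genes at the Mrto4 peak, were on the intestinal list. In other pairs 1 partner was named and the other was not, such as Chpf, Helq and Fpgt on the spleen list without Tmem198, Mrps18c and Lrriq3. Both partners were on the list in 9 pairs for lower mRNA in the intestine and in 10 pairs for the spleen, against 5 and 6 for higher mRNA.

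**Figure D5:**
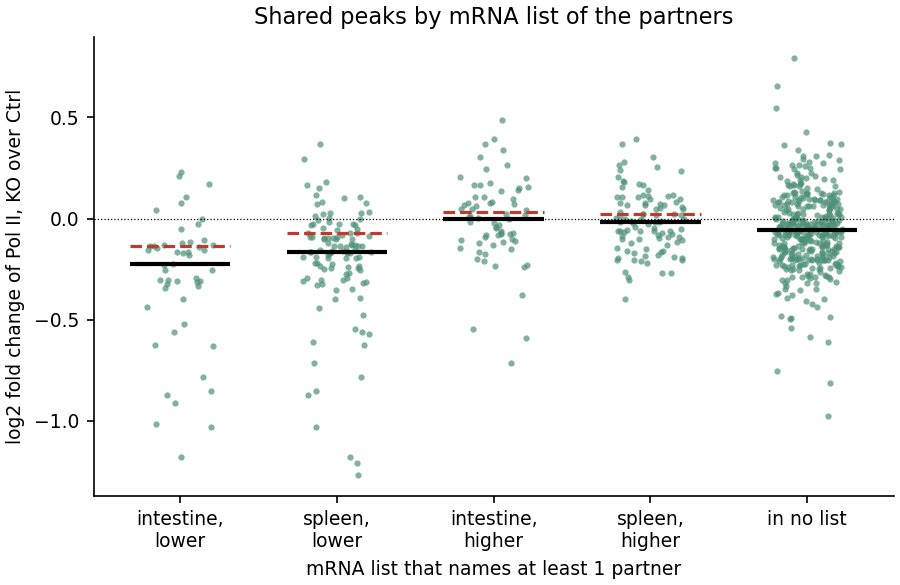
Points give the log2 fold change of Pol II, KO over Ctrl, in each shared peak (y axis) by the mRNA list that names at least 1 partner (x axis), black lines give the median over peaks, and red dashed lines give the median of one-gene promoters on the same list. The medians of the lists of lower mRNA lie at −0.23 and −0.16, and those of the lists of higher mRNA and of peaks on no list lie between −0.06 and 0.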

How the data were processed

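Nuclei of sorted splenic Treg cells were profiled by Pol II CUT&Tag in 2 Ctrl and 2 KO libraries. According to the methods of the study, 150 bp reads were mapped to mm10 with Bowtie2, uniquely mapped reads were kept and duplicates removed, peaks were called with MACS2 at a p-value of 0.01 against IgG, and the peaks of the libraries were merged with bedtools. The deposited table holds the raw counts of the authors per merged peak, not normalized, so each peak has the same borders in all libraries.

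Gene starts were taken from GENCODE vM21 on GRCm38.p6, the assembly of mm10, and a pair was named with its minus-strand gene first. All 56615 peaks were fitted together with DESeq2 1.42.0 (R 4.3.3; genotype only, median-of-ratios size factors, Wald test, Benjamini-Hochberg adjustment over all peaks), the test the study states, and with edgeR 4.0.16 (quasi-likelihood, TMM) as an alternative. Body peaks were summed per gene and fitted in the same way over 7459 genes. Single values per library were compared by exact permutation tests. Other alternatives were total-count or TMM size factors, a mean of at least 10 counts, the replicate number as a block, leaving out each library, and other limits on distance. The fit was tested on simulated data with 200 changed peaks. All 648 peaks had a mean of at least 10 counts and the lowest single count was 5.

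The members, the gene groups and the mRNA lists were chosen with earlier results of these data known. Pairs named in the text were those with the 6 lowest p higher and the 8 lowest p lower in KO among pairs whose genotypes do not overlap, the 6 highest and 3 lowest in counts per kb in Ctrl, the textbook divergent pairs, the 2 lowest p of each gene group, and the 3 longest and 3 shortest start distances. Cep44/Fbxo8 and the partners named from gene bodies were chosen after their values were seen. Some pairs that these rules name are not reported here.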

Additional observations from a re-analysis of the deposited data

How the results depend on the processing

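With 2 libraries per genotype and totals from 4489646 to 13351007 counts, the standard error of the log2 fold change of a shared peak had a median of 0.26 and ran from 0.18 to 0.81. The count of peaks called was 0 by DESeq2 with its own, total-count or TMM size factors and with a mean of at least 10 counts, 4 by edgeR (27 of all 56615 peaks) and 2 with the replicate block (25 of the 14905 peaks that kept an adjusted p), Dhx38/Txnl4b (adjusted p = 0.00429 by DESeq2 with the block) and Chpf/Tmem198 (0.0109). At an unadjusted p under 0.05 the lower shared peaks numbered 10 by DESeq2, 21 by edgeR and 17 with the replicate block. The higher peaks numbered 0, 2 and 0, with 1 under total-count size factors and 2 when pairs with overlapping 5' ends were included. Over all 56615 peaks the lower ones numbered 376, 964 and 516 in the same order, and the higher ones 488, 1093 and 395. Lower peaks thus also became more frequent over all peaks with edgeR and with the block. The labels give both genotypes the replicate numbers 1 and 2 but do not say that a number marks a shared batch, and the deviations of the libraries numbered 1 correlated across peaks with r = 0.233, which with 2 numbers does not settle whether they pair the libraries, so the block stayed an alternative. Leaving out each library in turn, where the lone library is assumed to vary like the other genotype, gave 4 to 12 lower peaks, 0 to 1 higher peaks and 0 called, and the median log2 fold change ran from −0.14 to 0.0081, with the sign reversed without Ctrl 1 (0.0081). Without Ctrl 1 the lower peaks numbered 4 and without Ctrl 2 they numbered 6. The difference in the share of counts stayed between −0.142 and −0.0424 percentage points, and the ratio of counts per kb to one-gene promoters between 1.28 and 1.30. With the midpoint within 500 bp of both starts the ratio was 1.24 and 72.3% of annotated pairs had a peak. Total-count size factors shifted the median of all peaks by 0.03 on the log2 scale and turned the log2 fold changes of Rita1/Ddx54 (0.013), Pdcd10/Serpini1 (0.0058) and Slc7a6os/Prmt7 (0.0031) above 0. The cause of these changes was not tested.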
